A study of Mus musculus with 6 samples.

Results

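The genes described here make and handle sterols and fatty acids: enzymes of cholesterol synthesis, sterol sensors, lipoprotein genes, and enzymes and carriers of fatty acid synthesis, activation and oxidation. They were taken from a list of 52 names, of which 49 had a probe set of their own among the 19926 genes measured. Sc4mol is an older name of Msmo1 and was counted once; Acsl1 and Acsl3 had no probe set with a single gene symbol in the annotation used and were not analysed here. RNA came from primary astrocyte cultures of C57BL/6J mice, either control cultures or cultures given tumour necrosis factor (TNF, an inflammatory cytokine) at 50 ng/mL, all collected at 24 h. Each group had 3 samples, numbered 1 to 3, each hybridised to 1 Affymetrix Mouse Gene 1.0 ST array. No animal age, transgene or separate vehicle is given in the labels. Whether the replicates came from different cultures or mice is not stated in the labels, so p-values rest on the spread among these arrays, some of which may be technical. All levels are log2 signals and all differences are TNF minus control on the log2 scale, where 1 is a 2-fold change.

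Cholesterol is built from acetyl-CoA through mevalonate, isoprenoids, squalene and lanosterol. When membrane sterol is low, SREBP transcription factors, encoded by Srebf1 and Srebf2, leave the endoplasmic reticulum and switch on the pathway's genes, while Insig proteins hold them back. Fatty acids are made from the same acetyl-CoA, then elongated and desaturated, bound to coenzyme A by synthetases, and burnt in mitochondria by beta-oxidation. In the brain, astrocytes are a main source of cholesterol, which they export on apolipoprotein E particles, and they supply polyunsaturated fatty acids to neurons.

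The promoters of 6 members are printed because the enzyme genes of cholesterol synthesis shared a sequence feature that the choice of members did not use, and to set them beside genes of fatty acid use that fell or rose. Each window runs from 250 bases before to 50 bases after a RefSeq transcription start (GRCm38.p6), 5′ to 3′ on the gene's strand. Capitals mark matches, on either strand, to the CCAAT box (CCAAT, read as ATTGG on the other strand), the E-box CACGTG or the sterol response element core TCACNCCAC. Hmgcs1 lies at chr13:119690101-119690400 (plus strand), Mvk at chr5:114444019-114444318 (plus strand), Mvd at chr8:122443373-122443672 (minus strand), Lss at chr10:76531355-76531654 (plus strand), Elovl5 at chr9:77917115-77917414 (plus strand) and Acsl5 at chr19:55253119-55253418 (plus strand).
Hmgcs1: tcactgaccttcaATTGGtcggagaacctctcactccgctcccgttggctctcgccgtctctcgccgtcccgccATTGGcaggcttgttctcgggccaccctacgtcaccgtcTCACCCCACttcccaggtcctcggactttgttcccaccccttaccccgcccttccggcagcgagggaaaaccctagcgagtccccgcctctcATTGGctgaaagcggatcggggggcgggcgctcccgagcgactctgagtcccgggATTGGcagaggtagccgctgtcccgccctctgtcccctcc
Mvk: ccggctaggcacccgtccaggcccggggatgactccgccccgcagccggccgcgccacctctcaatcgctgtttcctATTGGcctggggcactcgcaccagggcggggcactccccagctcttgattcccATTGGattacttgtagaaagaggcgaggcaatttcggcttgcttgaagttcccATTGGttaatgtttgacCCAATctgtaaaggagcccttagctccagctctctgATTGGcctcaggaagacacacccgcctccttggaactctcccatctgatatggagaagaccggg
Mvd: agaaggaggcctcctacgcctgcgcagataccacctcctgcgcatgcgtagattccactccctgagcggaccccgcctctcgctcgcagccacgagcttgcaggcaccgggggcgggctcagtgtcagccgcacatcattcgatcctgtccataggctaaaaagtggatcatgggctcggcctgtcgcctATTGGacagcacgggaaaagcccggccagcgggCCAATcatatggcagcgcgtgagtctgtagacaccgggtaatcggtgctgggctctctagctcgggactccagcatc
Lss: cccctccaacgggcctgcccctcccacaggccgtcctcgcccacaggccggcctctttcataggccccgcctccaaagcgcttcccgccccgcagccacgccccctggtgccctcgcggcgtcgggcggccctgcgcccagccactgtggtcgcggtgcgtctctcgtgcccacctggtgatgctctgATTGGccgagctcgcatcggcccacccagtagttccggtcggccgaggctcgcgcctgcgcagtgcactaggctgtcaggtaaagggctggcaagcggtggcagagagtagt
Elovl5: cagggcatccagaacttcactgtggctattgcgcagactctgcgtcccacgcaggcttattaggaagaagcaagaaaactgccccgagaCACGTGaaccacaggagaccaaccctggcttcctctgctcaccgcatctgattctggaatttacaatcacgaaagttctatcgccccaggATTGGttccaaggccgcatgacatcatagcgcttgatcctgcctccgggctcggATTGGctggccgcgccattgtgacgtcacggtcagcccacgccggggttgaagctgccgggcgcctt
Acsl5: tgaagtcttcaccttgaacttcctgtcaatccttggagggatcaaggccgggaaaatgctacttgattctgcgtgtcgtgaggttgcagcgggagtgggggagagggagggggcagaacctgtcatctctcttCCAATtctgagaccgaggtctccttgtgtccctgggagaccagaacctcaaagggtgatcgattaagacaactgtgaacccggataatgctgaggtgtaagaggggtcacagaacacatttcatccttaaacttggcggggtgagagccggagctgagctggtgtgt

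RefSeq windows were at hand for 40 of the 49 members, 52 windows in all. Each of the 14 cholesterol synthesis genes with a window had a CCAAT box in at least 1 window, against 13 of the other 26 members and 41.1% of all genes with a window. Counted by window, 82.4% of those of the synthesis genes held it, against 37.4% of all 32851 windows. The Mvk window held 5 such boxes. CCAAT is the motif of the factor NF-Y, which works beside SREBP at sterol genes. The sterol response element core matched in 1 member window, that of Hmgcs1, 137 bases before the start, and in 1.24% of all windows. The E-box matched for Dhcr7, Hsd17b7, Sc5d, Elovl5 and Insig1, in 9.6% of member windows against 7.15% of all. An NF-kB core (GGGANTTCC) matched in none of the 52 member windows and in 1.68% of all, and an interferon-stimulated response core (GAAANNGAA) in 4 member windows, those of Acacb, Acsbg1, Apoe and Ebp, or 7.7% against 8.56% of all. None of the motifs overlaps another in the printed windows. A match says only that the letters are present in the window.

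Of the sterol and fatty acid genes, 6 passed the test between TNF and control cultures, 5 as lower and 1 as higher. The fatty acid carrier Fabp5, the synthetase Acsl6, the lipase Lpl, the oxidation enzyme Acadm and the elongase Elovl5 fell, and the synthetase Acsl5 rose. In RNA from whole cultures, fewer cells of a type and less RNA per cell cannot be told apart. The test was limma over all 19926 genes with a Benjamini-Hochberg adjusted p under 0.05. It called 1 of 49 members higher against 3.87% of all genes, and 5 lower against 3.33%, together 12.2% of the members against 7.20%. The members are bright genes: 45 of 49 lay at or above the median signal, and of all such bright genes 6.21% were called higher and 5.58% lower, together 11.8%, near the members' share. The median difference was -0.07 over the members and -0.003 over all genes, and the median size of a difference was 0.23 against 0.13. Of the 49 members 18 had groups that did not overlap (36.7%), against 24.0% of all genes and 37.1% of the bright ones. Without control 1 or without TNF 2 the count of lower members was 3, and without control 2 there were 2 higher members.

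Among the 43 members that did not pass, the 95% interval of the difference lay within 1.5-fold of no change for 28 and within 2-fold for 42. Ch25h was the exception. The same-numbered samples of both groups deviated together, and a fit with the replicate number as a block called 8 members higher and 10 lower, or 36.7% of them. That fit called 9.73% of all genes higher and 11.8% lower, 21.5% in either direction and 32.9% of the bright genes. The 12 members called only with the block were Mvk, Mvd, Fdps, Lss, Dhcr7, Ch25h and Acly as higher, and Scd1, Scd2, Acsbg1, Acadl and Hadhb as lower.

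**Figure D1:**
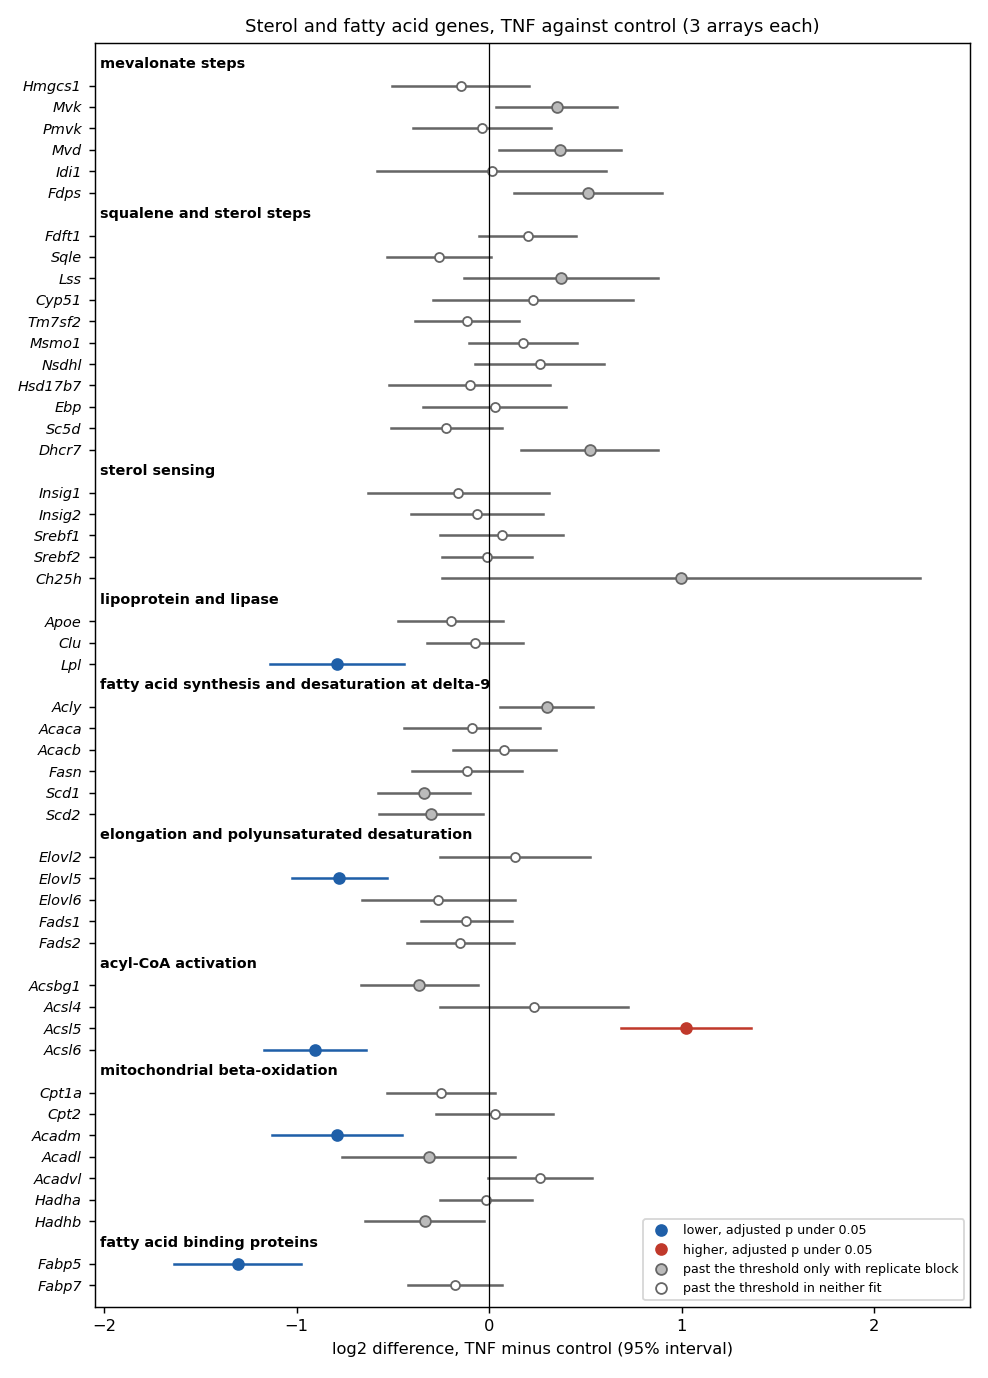
Log2 difference, TNF minus control (x axis, log2 units), for the 49 members (y axis, grouped by role), 3 arrays per group. Points are the fitted differences and lines their 95% intervals from limma without a block; blue and red mark the 5 lower and 1 higher genes past an adjusted p of 0.05, grey filling the 12 past it only with the replicate block, and open points those past it in neither fit. Fabp5 lies farthest to the left, Acsl5 farthest to the right, and the interval of Ch25h is the widest.

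Of 17 enzyme genes of cholesterol synthesis 0 passed the limma test, against 7.20% of all genes and 11.8% of bright genes. An unadjusted p under 0.05 was found for 4 of the 17, against 18.9% of all genes and 29.6% of the bright ones, and 5 of the 17 passed as higher with the replicate block, against 9.73% of all and 15.1% of bright genes. Hmgcs1, which makes HMG-CoA, was 11.26, 11.45 and 11.13 in controls 1 to 3, and TNF samples 1 to 3 were at 11.07, 11.39 and 10.93. The groups overlapped, with a difference of -0.15 (95% interval -0.51 to 0.21, limma adjusted p = 0.77). Mvk, mevalonate kinase, was 8.85, 9.18 and 8.87 in controls and 9.20, 9.47 and 9.28 with TNF. Every TNF sample lay above every control, by 0.35 on average (SE 0.14, adjusted p = 0.209, with the block 0.0181). Mvd, mevalonate diphosphate decarboxylase, was 7.93, 8.25 and 8.16 against 8.30, 8.53 and 8.62, again without overlap, and differed by 0.37 (adjusted p = 0.187, with the block 0.0171). Pmvk, the kinase between these enzymes, differed by -0.04, and Idi1, the isoprenoid isomerase, by 0.01.

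Fdps, the farnesyl diphosphate synthase whose product feeds sterols and protein prenylation, was 9.88, 10.32 and 9.94 in controls and 10.31, 10.70 and 10.68 with TNF. Control 2 lay just above TNF 1, so the groups overlapped, but each TNF sample was above the control of its number. The difference was 0.51 (SE 0.17, limma adjusted p = 0.129, with the block 0.00943). Dhcr7, the reductase of the last step to cholesterol, had the largest difference of the 17, from 8.58, 9.07 and 8.63 to 9.19, 9.41 and 9.25. The groups did not overlap, and the difference of 0.52 (SE 0.15) had an adjusted p of 0.0973 in limma and 0.00617 with the block. Without control 2 it passed as higher at 0.67 (adjusted p = 0.0387). Lss, the lanosterol synthase, was 8.45, 9.10 and 8.58 against 8.83, 9.43 and 8.99, a difference of 0.37 in which the groups overlapped (adjusted p = 0.451, with the block 0.0133).

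The other enzymes of the route passed in neither fit. Sqle, the squalene epoxidase that limits the later part of the pathway, was 11.12, 11.20 and 11.08 in controls and 10.85, 11.03 and 10.73 with TNF. All TNF samples lay below all controls, and the difference was -0.26 (limma adjusted p = 0.29, with the block 0.0596). Sc5d, a sterol desaturase, differed by -0.22, Tm7sf2, a sterol reductase, by -0.12 and Hsd17b7, a sterol ketoreductase, by -0.10. Fdft1, the squalene synthase, differed by 0.20, Cyp51, the lanosterol demethylase, by 0.23, Nsdhl by 0.26 and Msmo1 by 0.17, the last pair being enzymes of sterol demethylation. Ebp, the sterol isomerase, differed by 0.03. Within replicate numbers 8 of the 17 genes were higher with TNF in all 3 pairs and 5 were lower in all 3, so the genes lay on both sides of control; of all genes 25.7% were higher and 26.9% lower in all 3 pairs, together 52.6%. The median difference of the 17 genes was 0.17, and 0.10 without control 1 or TNF 2 and 0.11 without control 3.

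The sterol enzymes differed between replicate numbers as well as between groups. Control 2 was the highest control for 14 of the 17 genes, and TNF 2 was the highest TNF sample for 13. In 12 genes replicate 2 was highest in both groups, which held for 17.7% of all genes. The mean over the 17 genes was 9.82, 10.13 and 9.81 in controls 1 to 3 and 9.98, 10.22 and 9.94 with TNF. The median range among the 3 controls was 0.33, against a median size of the TNF difference of 0.22, and in 11 genes the control range exceeded the difference. Idi1, for example, was 9.12, 9.93 and 9.32 in controls and 9.34, 9.90 and 9.17 with TNF. A range over single arrays tends to be larger than a difference of group means. The count therefore does not rank replicate number against group, and no share over all genes is given. Replicate 2 also had the lowest mean of 11 microglia markers in each group, 6.35 in control and 6.46 with TNF, against 6.79 to 7.40 on the other arrays. The astrocyte list (11.02 in control and 10.64 with TNF) and the oligodendrocyte lineage list (7.23 and 7.17) were lowest in replicate 2 of each group as well. For the neuron, endothelial and fibroblast or mural lists replicate 1 was lowest in each group. The part of these cells in the sterol values was not tested.

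**Figure D2:**
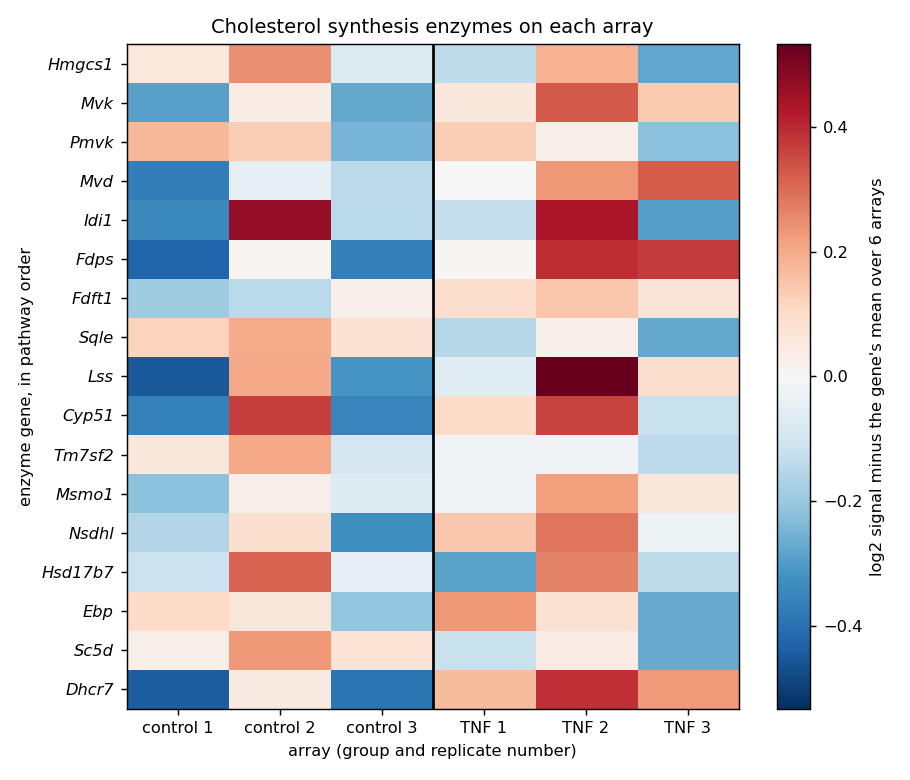
Log2 signal of the 17 cholesterol synthesis enzymes (rows, in pathway order) on each array (columns, control 1 to 3 and TNF 1 to 3), as the difference from the gene's mean over 6 arrays; red is above and blue below that mean. The columns of replicate 2 are the reddest of their groups for most genes. In each pair of columns 8 genes are redder with TNF (Mvk, Mvd, Fdps, Fdft1, Lss, Msmo1, Nsdhl, Dhcr7) and 5 bluer (Hmgcs1, Sqle, Tm7sf2, Hsd17b7, Sc5d).

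The sterol-sensing genes that steer this pathway passed the test in neither fit, apart from Ch25h with the block. Srebf2, the SREBP of sterol synthesis, was 10.74, 10.85 and 10.86 in controls and 10.77, 10.80 and 10.84 with TNF, a difference of -0.01 (95% interval -0.24 to 0.22). Srebf1, which favours fatty acid genes, differed by 0.06 (-0.25 to 0.38) and Insig2 by -0.06 (-0.41 to 0.28). Insig1, itself a SREBP target, was 10.54, 11.32 and 10.96 against 10.73, 10.96 and 10.65, with no common direction over the 3 numbers and a difference of -0.16 (-0.63 to 0.31). These intervals exclude a 2-fold change in either direction, though not smaller ones.

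Ch25h, the cholesterol 25-hydroxylase that interferon induces in macrophages, makes an oxysterol that holds back SREBP. It was 5.91, 5.59 and 7.09 in controls 1 to 3 and 7.62, 6.06 and 7.89 with TNF, a dim signal that ranged widely within both groups. The groups overlapped, but each TNF sample exceeded the control of its number, by 1.71, 0.48 and 0.80. The mean difference of 1.00 had an SE of 0.54 and a 95% interval from -0.25 to 2.24 (limma adjusted p = 0.402), and it passed with the replicate block (adjusted p = 0.0144). The mean of the 11 microglia markers followed the same order of replicates, 6.79, 6.35 and 7.40 in controls and 7.06, 6.46 and 7.39 with TNF. That order also held for the astrocyte list, 11.12, 11.02 and 11.32 in controls and 10.79, 10.64 and 10.91 with TNF. It held for the oligodendrocyte lineage list too, 7.30, 7.23 and 7.36 in controls and 7.24, 7.17 and 7.39 with TNF. Of the 11 microglia markers 0 passed in limma, against 7.20% of all genes. Cd68 alone had an unadjusted p under 0.05, against 18.9% of all genes. Itgam and Cd68 passed as higher with the block, or 18.2% of the 11, against 9.73% of all genes. By mean signal the 11 markers lay between percentile 21.8 (Aif1) and 64.2 (Cd68) of all genes, with Csf1r at 43.0 and Tyrobp at 54.4. The part of microglia or of other cells in the Ch25h values was not tested.

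Of the lipoprotein genes, Apoe, the main lipid carrier that astrocytes secrete, was 13.56, 13.28 and 13.45 in controls and 13.23, 13.15 and 13.31 with TNF. The difference of -0.20 (95% interval -0.47 to 0.07, limma adjusted p = 0.455) left the groups overlapping. Clu, which encodes clusterin, a lipid-binding chaperone also known as apolipoprotein J, differed by -0.07 (-0.32 to 0.18). Lpl, the lipoprotein lipase that frees fatty acids from lipoprotein triglyceride, fell from 7.91, 8.13 and 7.87 to 7.40, 7.22 and 6.92. Every TNF sample lay below every control; the fall was 0.79 (SE 0.15, 1.73-fold lower, adjusted p = 0.0194). The call was lost without control 1 (adjusted p = 0.066), without control 2 (0.07) and without TNF 2 (0.0624).

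Of 6 genes of fatty acid synthesis 0 passed in limma, against 7.20% of all genes and 11.8% of bright genes. Scd1, Scd2 and Acly had an unadjusted p under 0.05, against 18.9% of all and 29.6% of bright genes. These genes passed with the block, or 50.0% of the 6, against 21.5% of all and 32.9% of bright genes. Fasn, the fatty acid synthase, averaged 11.23 ± 0.15 in controls and 11.12 ± 0.12 with TNF (mean ± SD, n = 3 each), a difference of -0.11 (95% interval -0.40 to 0.17). Acaca and Acacb, the acetyl-CoA carboxylases that make its substrate, differed by -0.09 and 0.08. Acly, which supplies cytosolic acetyl-CoA to fatty acid and sterol synthesis, was 9.85, 9.83 and 9.70 against 10.08, 10.15 and 10.04. Its groups did not overlap, and the difference of 0.30 passed only with the block (limma adjusted p = 0.16, with the block 0.0327). The stearoyl-CoA desaturases, which make oleate, lay on the other side: Scd1 was 12.95, 13.01 and 13.00 in controls and 12.71, 12.68 and 12.55 with TNF, a difference of -0.34 (adjusted p = 0.106, with the block 0.0253). Scd2, the main brain form, was 13.44, 13.26 and 13.37 in controls and 13.21, 13.01 and 12.96 with TNF, a difference of -0.30 (adjusted p = 0.207, with the block 0.0371), again without overlap of the groups. Scd1 also passed in limma when dim genes under the median were dropped (adjusted p = 0.0397) and with a robust, trended variance (0.0167).

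Elovl5, the elongase of polyunsaturated fatty acids, fell from 12.15, 12.29 and 12.34 to 11.55, 11.43 and 11.47. The groups were well apart, at 12.26 ± 0.10 and 11.48 ± 0.06 (mean ± SD, n = 3 each), and the fall was 0.78 (SE 0.11, 1.71-fold lower, limma adjusted p = 0.00498). The desaturases that work beside it in the same route, Fads1 and Fads2, differed by -0.12 (95% interval -0.36 to 0.12) and -0.15 (-0.43 to 0.13). Elovl6, which extends saturated chains, differed by -0.26 and Elovl2, an elongase of longer polyunsaturated chains, by 0.13 at dim signals of 6.14 and 6.28. Neither passed in either fit.

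Acyl-CoA synthetases, which trap fatty acids as coenzyme A esters, included 1 gene that rose and 1 that fell. These were 50.0% of the 4 members of this role, against 7.20% of all genes and 11.8% of bright genes. Acsl5 rose from 8.69, 9.16 and 8.96 in controls to 9.88, 10.09 and 9.91 with TNF, so the lowest TNF sample lay well above the highest control. The rise was 1.02 (SE 0.15, 2.03-fold, limma adjusted p = 0.00572). Acsl6, the brain form linked to docosahexaenoic acid, fell from 9.60, 9.58 and 9.73 to 8.88, 8.67 and 8.66, also without overlap. The fall was 0.90 (SE 0.11, 1.87-fold lower, adjusted p = 0.00359). Acsbg1, a synthetase of astrocytes and other neural cells, was 11.42, 11.66 and 11.71 against 11.08, 11.30 and 11.33. All 3 pairs were lower, by 0.34 to 0.38, and the difference of -0.36 passed only with the block (adjusted p = 0.172, with the block 0.0144). Acsl4, which prefers arachidonic acid, differed by 0.23 with overlapping groups.

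Mitochondrial beta-oxidation showed 1 called gene among 7 (14.3%), against 7.20% of all genes and 11.8% of bright genes. Acadm, the medium-chain acyl-CoA dehydrogenase, fell from 11.21, 10.84 and 11.09 to 10.45, 10.09 and 10.22, with all TNF samples below all controls. The fall was 0.79 (SE 0.15, 1.73-fold lower, limma adjusted p = 0.0173) and was 0.75 to 0.87 within the 3 replicate numbers. The call was lost without control 1 (adjusted p = 0.0743), without control 3 (0.0629) and without TNF 2 (0.0678). Acadl, the long-chain enzyme, was 10.30, 10.14 and 9.79 against 9.99, 9.88 and 9.41, with overlapping groups but each pair lower, and differed by -0.31 (adjusted p = 0.487, with the block 0.0271). Acadvl, the very-long-chain enzyme, was 9.06, 8.86 and 8.75 in controls and 9.18, 9.16 and 9.12 with TNF. Its groups did not overlap, and the difference of 0.26 passed in neither fit.

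The trifunctional protein of beta-oxidation is made of Hadha and Hadhb subunits. Hadha was 11.59, 11.47 and 11.50 in controls and 11.59, 11.47 and 11.47 with TNF, nearly the same values by number, with a difference of -0.02 (95% interval -0.26 to 0.22). Hadhb was 10.46, 10.52 and 10.31 in controls and 10.26, 10.15 and 9.88 with TNF, without overlap, and differed by -0.33 (limma adjusted p = 0.222, with the block 0.0284), and its second probe set gave -0.34. The carnitine transferases that carry fatty acids into mitochondria, Cpt1a and Cpt2, differed by -0.25 and 0.03 and passed in neither fit.

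The largest difference of all members was in a fatty acid carrier. Fabp5, which binds fatty acids and retinoic acid and is expressed in immature neural cells, fell from 9.04, 9.24 and 8.86 to 7.80, 7.87 and 7.55. The lowest control was well above the highest TNF sample, and the fall was 1.31 (SE 0.14, 2.47-fold lower, limma adjusted p = 0.00167). A second probe set annotated to Fabp5 gave -1.23 (SE 0.14, adjusted p over all probe sets 0.00696 in limma), and near-identical gene copies were not told apart. Fabp7, the brain lipid-binding protein of radial glia and astrocytes, had bright signals, at 13.69, 13.80 and 13.85 in controls and 13.54, 13.64 and 13.63 with TNF. The groups did not overlap, but the difference of -0.18 (95% interval -0.42 to 0.07) passed in neither fit.

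**Figure D3:**
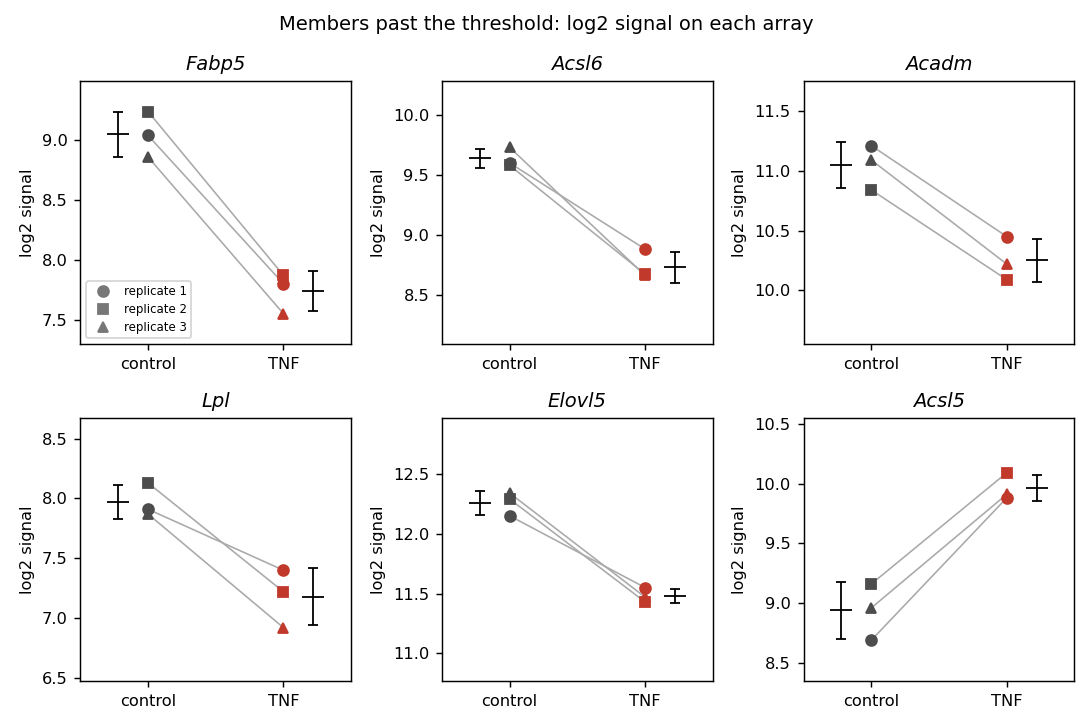
Log2 signal (y axis, each panel spanning the same number of log2 units) of the 6 members past the threshold on each array, control in grey and TNF in red. Symbols give the replicate number, lines join samples of the same number, and bars show the mean ± SD of 3 arrays. In every panel the groups are separate; Fabp5, Acsl6, Acadm, Lpl and Elovl5 go down in all 3 pairs and Acsl5 goes up.

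Beyond the members, 74 further genes of the same pathways were taken from lists of pathway membership, and 6 rose and 3 fell, or 12.2%, against 7.20% of all genes. Of the 74 genes 58 were bright, and 11.8% of bright genes were called. With the replicate block 15 were higher and 16 lower, or 41.9%, against 21.5% of all and 32.9% of bright genes. The count of lower genes was 0 without control 1 and 1 without control 3 or without TNF 2, and that of higher genes was 3 without control 2 or without TNF 2.

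Among those genes, Elovl7, an elongase of long saturated chains, rose from 7.43, 8.29 and 7.49 to 9.83, 9.62 and 9.35, by 1.86 (SE 0.24, 3.63-fold, limma adjusted p = 0.00408). Elovl5 and Elovl7 were the elongases that passed in limma, of the 6 on the gene lists used here. With the block Elovl1 also passed as higher (0.29, adjusted p = 0.0322) and Elovl4 as lower (-0.30, adjusted p = 0.0353). Agpat2, which makes phosphatidic acid for triglyceride and phospholipid, rose 1.79-fold (limma adjusted p = 0.00599), and a pair of lipases of stored triglyceride, Pnpla2 and Lipe, rose by 0.52 and 0.58, while Mgll, the monoglyceride lipase, fell by 1.05. The call of Elovl7 was lost without both arrays of replicate 1 (adjusted p = 0.0856), and that of Agpat2 without those of replicate 1 (0.0811) or 2 (0.0978). The call of Pnpla2 was lost whichever array was left out (highest adjusted p = 0.112, without control 2), that of Lipe without control 1 (0.0565), control 2 (0.0571) or TNF 2 (0.0516), and that of Mgll without control 1 (0.0873), control 2 (0.0634) or TNF 1 (0.0695).

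Genes that handle oxysterols and lysosomal sterol also passed. Cyp7b1, a hydroxylase that breaks down oxysterols such as the product of Ch25h, rose 1.94-fold, from 8.36, 8.17 and 7.92 to 8.99, 9.42 and 8.91. Cyp46a1, the brain's own cholesterol hydroxylase, fell 1.54-fold, and Npc1, which releases cholesterol from lysosomes, fell 1.38-fold. Acaa1a, a peroxisomal thiolase, rose 1.73-fold. The calls were lost for Cyp7b1 without control 2 (limma adjusted p = 0.0527) or control 3 (0.056), for Cyp46a1 without control 1 (0.0608), control 3 (0.0542) or TNF 2 (0.0575), for Npc1 whichever array was left out (highest 0.158, without control 1) and for Acaa1a without TNF 2 (0.0582). Abca1, the cholesterol exporter, differed by -0.04 (95% interval -0.31 to 0.24) and Cpt1c, a neural carnitine transferase, by 0.05.

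**Figure D4:**
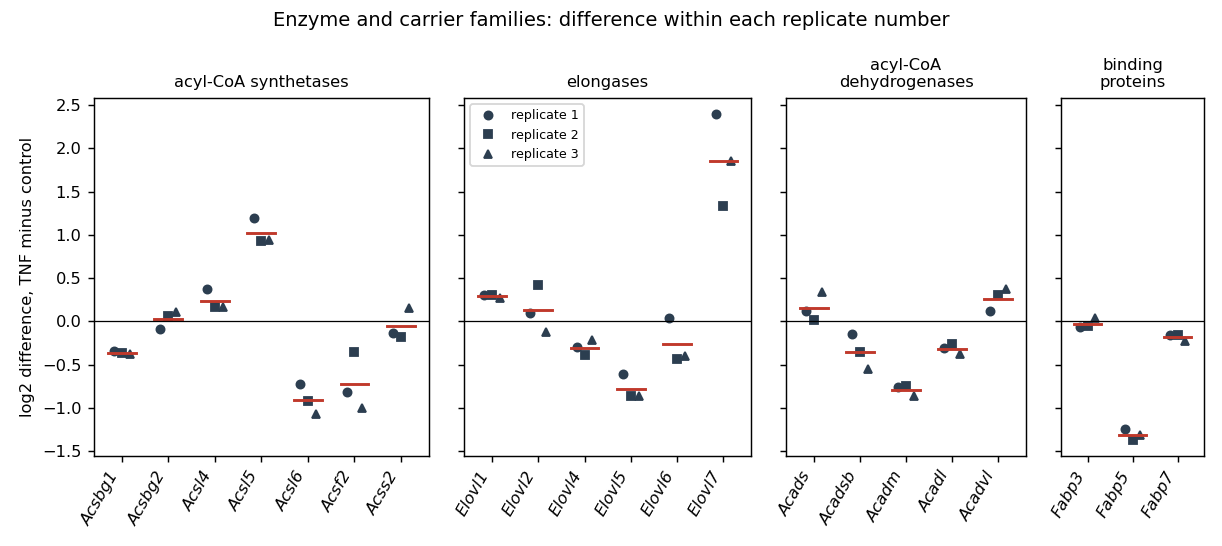
Log2 difference, TNF minus control (y axis), within each replicate number (symbols) and as the mean (red line). The genes are those on the lists used here, not all relatives, of 4 families: acyl-CoA synthetases, elongases, acyl-CoA dehydrogenases and fatty acid binding proteins. Relatives lie on both sides of 0: Acsl5 above and Acsl6 below, Elovl7 above and Elovl5 below, Acadvl above and Acadm below, while Fabp5 lies below Fabp3 and Fabp7. Of the genes shown, Acsl5, Acsl6, Elovl5, Elovl7, Acadm and Fabp5 passed in limma, while Acadvl passed in neither fit.

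The cultures carried bright astrocyte markers apart from S100b, and the 10 markers on the list averaged 11.02 to 11.32 in controls and 10.64 to 10.91 with TNF. S100b averaged 6.59 in controls and 6.19 with TNF, below the median gene signal of 7.63. Of the 10 markers Gja1, Aldoc and Glul fell and 0 rose in limma, where 3.33% of all genes and 5.58% of bright genes fell. With the block 2 were higher, Aqp4 and Slc1a2, and 6 lower, against 21.5% of all genes and 32.9% of bright genes in either direction. The means of the microglia, oligodendrocyte lineage, neuron, endothelial and fibroblast or mural markers lay between 6.22 and 8.23 on every array. In limma Map2 of 10 neuron markers, Kdr of 7 endothelial and Acta2 of 9 fibroblast or mural markers passed as lower. Of the 11 microglia and 9 oligodendrocyte lineage markers 0 passed, and 3.33% of all genes were called lower. With the block Stmn2 (adjusted p = 0.0398) and Pdgfrb (0.0146) also passed as lower, against 11.8% of all genes. Gad1 (0.00792), Itgam (0.0137) and Cd68 (0.0307) passed as higher with the block, against 9.73% of all genes. Single markers of other types were bright, such as Stmn2 at 11.80 to 12.42 in controls and 11.63 to 11.79 with TNF, and Acta2 at 13.28 to 13.46 and 12.01 to 12.63. The part of the cells these lists mark in the falls of Fabp5, Acsl6, Elovl5, Acadm and Lpl was not tested.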

How the data were processed

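The authors deposited log2 signals for 35544 probe sets and 6 arrays. Per the submitters' processing notes, RMA (background correction, quantile normalization, probe summary) and limma were used, with versions not given in the sources used here. Base 2 was read from the values, 2.04 to 14.37. RMA compresses large folds and no detection calls were used, so dim values may lie near background, and the number of arrays limits the precision. Probe sets with 1 symbol in the platform annotation were kept (21777), the one of highest mean per gene, giving 19926 genes. limma 3.58.1 in R 4.3.3 (lmFit, eBayes) compared 3 TNF with 3 control samples, as a two-sided test with no block and Benjamini-Hochberg adjustment over all genes, on 4 residual degrees of freedom. The limma fit without the block was tested on simulated data with independent errors, which held no pairing by number. The fit with the block was not tested in that way.

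Same-numbered samples correlated in their deviations from group means at 0.55, 0.65 and 0.75, so the values pair the samples by number, which no label explains; a fit with the number as a block stands where it changes a call. Members and lists were chosen with earlier results of these data known. The rule gave values per sample to members past the threshold in either fit and those with the largest differences; other pathway genes were named if past it without the block, with Abca1 and Cpt1c. Some listed genes are not reported here. Values per sample of further members, and the values of Elovl1, Elovl4 and single markers, were added after they were seen. Members with 2 probe sets (Acaca, Fabp5, Fdft1, Hadhb, Idi1) gave like differences; near-identical gene copies cannot be told apart. Alternatives were other centring, normalization, filters, variance models, array weights, probe sets, thresholds and samples left out. Promoter sequences are RefSeq's (GRCm38.p6). Python 3.11.15, pandas 2.3.3, numpy 2.4.6 and matplotlib 3.10.9 were used.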

Additional observations from a re-analysis of the deposited data

How the results depend on the processing

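The replicate block, with the number pairing the samples, raised the counts to 1938 higher and 2351 lower of all genes, 8 and 10 members and 15 and 16 other pathway genes; it leaves every difference as it is. At an adjusted p under 0.01 there were 386 higher and 195 lower genes, 3 lower members, and 2 higher and 0 lower other pathway genes in limma. With a log2 difference of at least 1 the counts were 365 and 200 genes, 1 lower member, and 1 higher and 1 lower other pathway gene. Over all probe sets 436 were lower, with 1 lower other pathway gene. That count was 5 after quantile normalization and 6 without genes below the median signal, with trended robust variance, or with array weights, which called 2 members higher. The median difference of lipoprotein and lipase genes was -0.136 without dim genes and -0.258 with array weights, and that of fatty acid synthesis genes -0.056 with array weights.

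Leaving out 1 array, or both arrays of a number, gave 273 to 669 higher and 106 to 455 lower genes, 0 to 2 higher and 1 to 5 lower members, and 0 to 6 higher and 0 to 3 lower other pathway genes. Role medians then ran from -0.275 to -0.136 for lipoprotein and lipase, -0.169 to -0.012 for fatty acid synthesis, -0.172 to -0.082 for elongation, -0.283 to -0.14 for beta-oxidation, 0.104 to 0.344 for mevalonate steps, 0.103 to 0.208 for squalene and sterol steps and -0.173 to 0.051 for acyl-CoA activation, which changed sign, as did sterol sensing at -0.031 to 0.031. Leaving out replicates 1 or 2 whole was chosen after seeing the data. Fabp5, Acsl5, Acsl6 and Elovl5 kept their calls in each fit without 1 array. With a whole number out, Acsl5 was lost without 3 (adjusted p = 0.0623) or 1 (0.0723), Acsl6 without 2 (0.0672), Elovl5 without 1 (0.0624) or 2 (0.1) and Fabp5 without 1 (0.0536). Over 33 named genes and 21 settings, 587 values kept the call or its absence, 88 lost and 16 gained the call. A change of sign with a call in either fit was found for 0. Genes near 0 that passed in neither fit could change sign and were counted as kept. Apart from the fits with fewer arrays or genes, the causes were not tested. With 3 arrays a group the median SE was 0.143. Ch25h had the widest SE of the members, 0.54, while Lpl, Acacb and Elovl2, also below the median signal, had 0.15, 0.12 and 0.17.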
